A study of Mus musculus with 5 samples.

Results

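Mouse keratin (Krt) and keratin-associated protein (Krtap) genes were examined for binding of macroH2A1.2, one of the splice isoforms of the histone variant macroH2A1. Members were the autosomal protein-coding genes of GENCODE M21 (mm10) whose symbol is Krt or Krtap followed by a digit, which gave 110 of 20807 genes, 53 Krt and 57 Krtap. All 110 fell into 6 clusters, defined by gaps of at most 1 Mb between neighbours. The largest held 50 genes on chromosome 11, 26 on chromosome 15 and 24 on chromosome 16, and the small ones held 5 on chromosome 7, 3 on chromosome 10 and 2 on chromosome 1.

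Keratins are the intermediate filament proteins of epithelia and are built as obligate pairs of an acidic type I and a basic type II chain. In the mouse the type I genes lie together on chromosome 11 and the type II genes on chromosome 15, with Krt18, a type I gene, at the edge of the type II cluster. Keratin-associated proteins form the matrix between keratin filaments of the hair shaft and are sorted by composition into high-sulfur, ultrahigh-sulfur and high glycine-tyrosine families. Neither group belongs to the usual program of fat cells, and macroH2A1 is known mainly for wide domains over silent chromatin. No RNA was measured here, so neither the silence of these genes nor the labelled cell type was checked against expression.

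The cells were 3T3-L1, a mouse pre-adipocyte line, carrying a lentiviral transgene that stably expresses macroH2A1.2 fused to green fluorescent protein (GFP). Chromatin cut with micrococcal nuclease was precipitated with an anti-GFP antibody from pre-adipocytes (2 replicates) and from mature adipocytes (2 replicates), made from the same cells with IBMX, dexamethasone and insulin. A single library made without antibody served as the control for all 4 samples. Conditions follow the sample titles. Other label text disagrees: a description field marks each mature sample as undifferentiated and the control as an antibody sample, so every comparison between conditions below rests on the titles.

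Binding is given as regions that the authors called in each sample against the control (false discovery rate up to 0.001). The samples held 36468, 38546, 59375 and 61196 regions, in the order pre-adipocytes replicates 1 and 2, then mature adipocytes replicates 1 and 2, which is kept throughout. Replicate 2 of pre-adipocytes was shallow: its library was 0.549 times the size of the control against 1.202 to 1.227 times in the other samples, and its median region spanned 3000 bp against 3400 to 5800 bp. Coverage, the share of bases inside called regions, was lower in this sample at the clusters of chromosomes 11 and 15, and where leaving it out changed a result, the value without it is given. Because each library came from a whole culture, binding in fewer cells and weaker binding in every cell cannot be told apart.

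The 2 members whose transcription start lay inside a region in all 4 samples were Krtap3-1 and Krtap1-5, high-sulfur hair matrix genes that are neighbours on chromosome 11. Over all autosomal protein-coding genes 0.639% had such a start. Their RefSeq promoters (GRCm38.p6) are printed with those of Krtap8-1 and Krtap11-1, hair matrix genes of chromosome 16 with no region within 10 kb in any sample, and of Krt5, the type II keratin of basal epidermis, which had regions within 10 kb in all 4 samples but none over its start. Each line holds the 250 bases before the start, 5′ to 3′ on the minus strand, with TATAAA in capitals.
Krtap3-1 (chr11:99566631-99566880): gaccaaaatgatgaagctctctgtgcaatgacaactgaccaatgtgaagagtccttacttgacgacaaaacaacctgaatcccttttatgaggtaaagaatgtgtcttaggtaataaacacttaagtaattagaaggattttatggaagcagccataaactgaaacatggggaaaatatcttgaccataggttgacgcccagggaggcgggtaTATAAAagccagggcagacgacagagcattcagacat
Krtap1-5 (chr11:99581017-99581266): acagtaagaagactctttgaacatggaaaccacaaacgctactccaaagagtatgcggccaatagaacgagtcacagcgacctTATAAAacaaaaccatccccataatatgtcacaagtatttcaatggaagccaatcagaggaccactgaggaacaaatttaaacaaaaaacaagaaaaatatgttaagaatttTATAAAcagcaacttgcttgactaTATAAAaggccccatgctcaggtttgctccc
Krtap8-1 (chr16:89487953-89488202): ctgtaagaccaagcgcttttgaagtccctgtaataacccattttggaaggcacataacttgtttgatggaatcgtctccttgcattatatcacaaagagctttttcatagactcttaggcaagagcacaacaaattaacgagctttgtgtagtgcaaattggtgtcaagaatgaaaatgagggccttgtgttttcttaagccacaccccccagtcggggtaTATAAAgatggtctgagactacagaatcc
Krtap11-1 (chr16:89571184-89571433): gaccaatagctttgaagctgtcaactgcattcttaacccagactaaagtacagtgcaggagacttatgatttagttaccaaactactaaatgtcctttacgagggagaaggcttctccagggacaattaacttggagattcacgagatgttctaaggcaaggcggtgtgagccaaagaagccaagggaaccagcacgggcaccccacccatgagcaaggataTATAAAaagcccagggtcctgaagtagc
Krt5 (chr15:101712906-101713155): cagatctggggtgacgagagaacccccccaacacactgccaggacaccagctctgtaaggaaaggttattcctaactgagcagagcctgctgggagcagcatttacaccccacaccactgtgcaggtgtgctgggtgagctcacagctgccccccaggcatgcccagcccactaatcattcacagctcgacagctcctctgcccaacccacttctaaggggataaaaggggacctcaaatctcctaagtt

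The letters TATAAA, the core of the TATA box that positions transcription initiation, stood just upstream of the start in all 4 hair matrix genes printed, bound or not, and not before Krt5. Only exact matches were counted. The Krt5 line holds the similar letters ataaaa near its end, and variants of the box were not searched for. A RefSeq promoter, running from 250 bases before to 50 bases after the start, was matched for 84 of the 110 members. TATAAA on the gene's strand, beginning 20 to 40 bases before the start, was present in 44 of the 84 (52.4%) against 2.02% of 31396 autosomal promoters. On either strand and anywhere in the window it was present in 72.6% of the members' promoters against 13.6% of all. The share with the motif 20 to 40 bases upstream was 67.5% on chromosome 11, 45.5% on chromosome 16 and, with 3 of 15 promoters, lower on chromosome 15. Among members whose start lay inside a region in no sample it was 53.2% of 47 promoters, and 42.9% of 14 where the start lay inside a region in 3 or 4 samples. Median GC content was 44.5% in the members' promoters and 53.0% over all promoters.

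The 3 large clusters differed in coverage. The type II keratin cluster of chromosome 15 (mm10, chr15:101347444-102032027) was the most covered of the 6 in every sample, the mixed cluster of chromosome 11 (chr11:99232761-100269871) lay between the other large clusters in every sample, and the Krtap cluster of chromosome 16 (chr16:88610705-89571183) held no region in any sample. The clusters of chromosomes 15 and 11 stood above their own 1 Mb flanks in 4 of 4 samples and the chromosome 16 cluster stood below in 4 of 4.

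**Figure D1:**
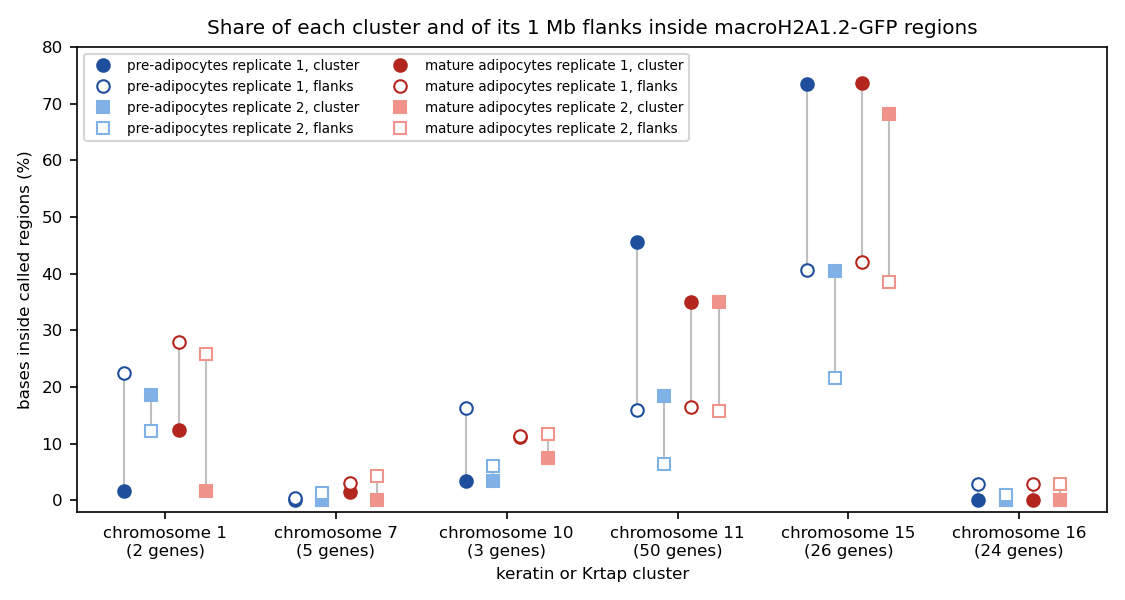
Share of bases inside called macroH2A1.2-GFP regions (%) in each of the 6 clusters and in its 1 Mb flanks, by sample, with cluster and flank values of the same sample drawn side by side. The clusters of chromosomes 15 and 11 lie above their flanks in all 4 samples, and the chromosome 16 cluster lies at 0.

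The chromosome 15 cluster spans 685 kb and runs from Krt80 to Krt18. Its coverage was 73.4%, 40.5%, 73.6% and 68.2%, against 40.6%, 21.5%, 42.1% and 38.5% in the flanks together and 26.96%, 14.9%, 26.1% and 25.4% over the whole chromosome. Pre-adipocytes replicate 2 was low in the cluster, in the flanks and on the chromosome alike, and the ratio of cluster to flanks stayed between 1.75 and 1.88. The excess over the flanks was 28.3 ± 6.31 percentage points (SD, n = 4, exact two-sided sign-flip permutation test, p = 0.13, the smallest p that 4 samples allow), and 31.4 points without the shallow replicate. Regions of the cluster were also more enriched than those of its flanks, with reads summed over regions at 1.80, 2.05, 2.04 and 2.05 times the scaled control, against 1.58, 1.85, 1.68 and 1.74 times. The control itself gave fewer reads in these regions, 16.8 to 18.3 per kb against 19.4 to 20.7 per kb in regions of the flanks, and the part of this in the enrichment was not tested.

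Within the cluster each sample held between 54 and 80 separate regions. Regions of at least 1 sample covered 90.5% of it and regions of all 4 samples covered 27.02%. The widest region at any member was in mature adipocytes replicate 1 and spanned 42.2 kb (chr15:101863401-101905600). It held 1766 ChIP reads and 640 control reads, 2.25 times the scaled control, and took in the starts of Krt77 and Krt76, keratins of suprabasal and oral epithelium. In the same sample a region of 30.2 kb covered the whole of Krt72 and part of Krt73, keratins of the inner root sheath of the hair follicle. In pre-adipocytes replicate 1 a region of 35.6 kb took in the start of Krt7, a keratin of simple epithelia. In the shallow replicate the widest region in the cluster was 11.4 kb. At all members together regions of 20 kb or more were 6 of 118, 0 of 113, 5 of 146 and 1 of 177, or 5.08%, 0%, 3.42% and 0.565%, against 4.66%, 0.179%, 1.84% and 1.5% of all regions, so wide regions were not consistently more frequent at members.

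The chromosome 11 cluster spans 1037 kb and holds 27 type I keratin genes with 23 Krtap genes between them. Its coverage was 45.6%, 18.3%, 35.04% and 35.02%, against 15.9%, 6.45%, 16.4% and 15.8% in the flanks and 14.1%, 6.27%, 15.1% and 14.3% over the chromosome. The highest value was in pre-adipocytes replicate 1 and the lowest in pre-adipocytes replicate 2, so that the mature samples lay between the pre-adipocyte samples. The excess over the flanks was 19.9 ± 7.34 percentage points (SD, n = 4, exact two-sided sign-flip permutation test, p = 0.13, the smallest possible). Without the shallow replicate the excess was 22.5 points, and with only regions at least 2 times over the control it was 8.31 points. Unlike on chromosome 15, enrichment inside regions was close to that of the flanks, 1.77, 2.31, 1.95 and 1.95 times the scaled control against 1.80, 2.33, 1.94 and 2.03 times, and control reads were 15.3 to 15.6 per kb against 14.8 to 15.5 per kb.

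Within the chromosome 11 cluster the Krtap genes sit between keratin blocks. The 15 keratin genes from Krt33a to Krt42, 7 hair keratins and 8 others, among them Krt13, Krt15, Krt19, Krt14 and Krt17, were covered by 59.8%, 27.2%, 39.9% and 42.3%. The 23 Krtap genes from Krtap3-3 to Krtap17-1 were covered by 42.0%, 17.4%, 29.6% and 30.2%. The 12 keratin genes from Krt222 to Krt40, which include keratins of the inner root sheath, were covered by 37.7%, 10.6%, 37.1% and 35.6%. The Krt33a to Krt42 block was the most covered of these blocks in each of the 4 samples, while the order of the other blocks changed between conditions. Reads in regions stood at 1.66, 2.19, 1.83 and 1.86 times the scaled control in the Krtap block and at 2.02, 2.47, 2.07 and 2.07 times in the Krt33a to Krt42 block.

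**Figure D2:**
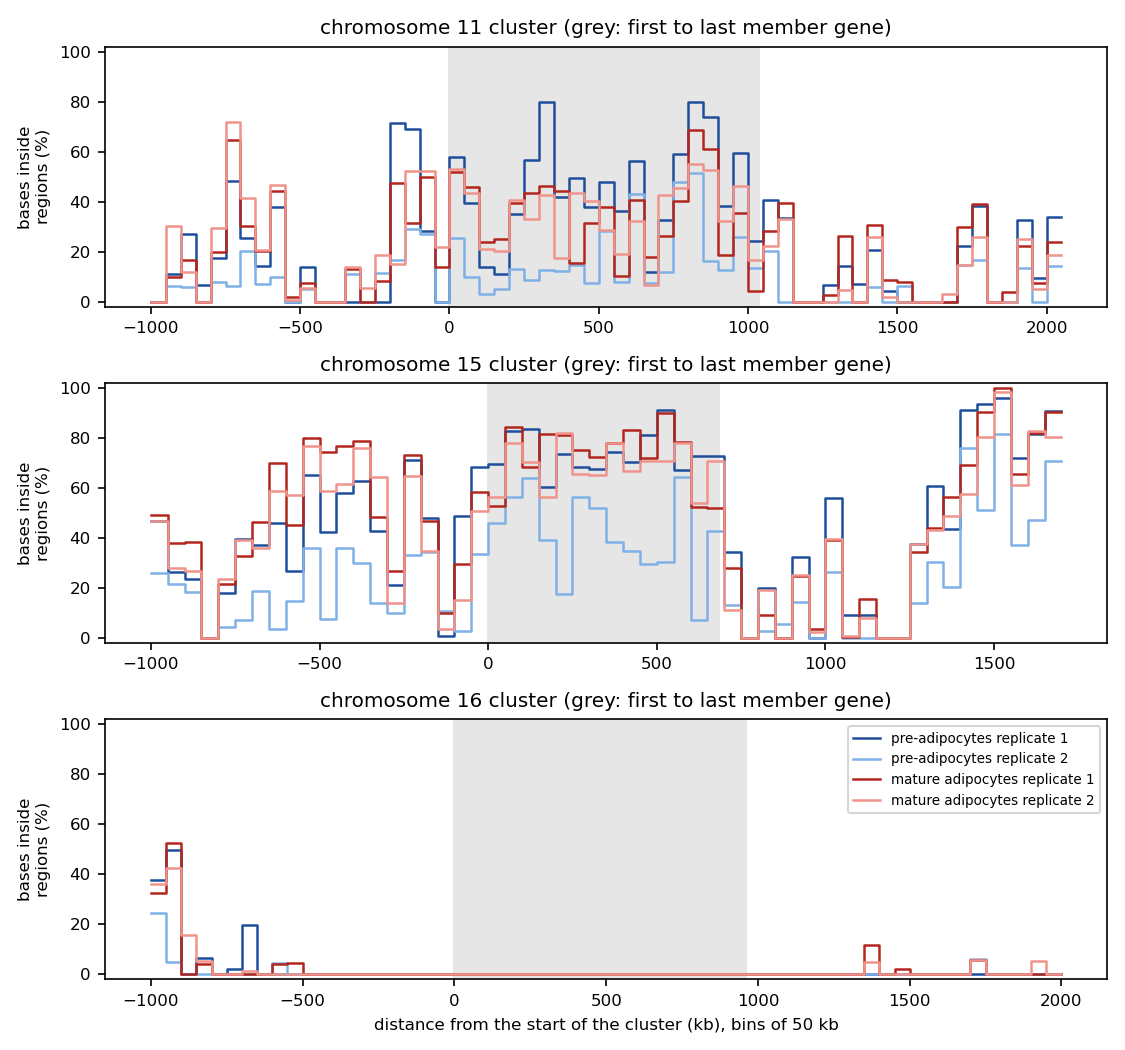
Share of bases inside called regions (%) in 50 kb bins across the clusters of chromosomes 11, 15 and 16 and 1 Mb on each side, against distance from the start of the cluster (kb), with 1 line per sample. Coverage is raised across the grey cluster span of chromosomes 11 and 15 and is 0 in every bin of the chromosome 16 cluster, and the line of pre-adipocytes replicate 2 runs mostly below the others.

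The chromosome 16 cluster spans 960 kb and holds 24 Krtap genes, 15 of the high glycine-tyrosine type (families 6, 7, 8, 19, 20, 21 and 22) and 9 of the high-sulfur type. None of the 24 had a region within 10 kb in any of the 4 samples, although 17.8%, 10.2%, 17.8% and 17.6% of the chromosome was covered. The stretch without a region around the cluster ran for 2886, 2264, 1913 and 2078 kb. Such stretches were common, with 388, 404, 343 and 345 of 1 Mb or more on the autosomes, 15, 15, 16 and 17 of them on chromosome 16. The flanks were almost empty as well, with coverage of 2.89%, 0.990%, 2.91% and 2.91%, so the difference of the cluster from them was -2.43 ± 0.957 percentage points (SD, n = 4, exact two-sided sign-flip permutation test, p = 0.13, the smallest possible). As the cluster was at 0, the difference could not be positive, and any region in the flanks of each sample gives this p. The test therefore says nothing beyond the empty cluster. The size of the difference depended on where the flanks ended, with -0.205 points for flanks of 0.5 Mb and -20.1 for flanks of 2 Mb. For flanks of 0.5 Mb the exact sign-flip p was 0.5, since these held no region in either pre-adipocyte sample. With only regions at least 2 times over the control it was -0.303 points. The tables list called regions only, so an uncalled stretch may still hold reads, and its enrichment is not known.

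All 3 large clusters were denser in genes than their flanks. Starts of protein-coding genes numbered 39.6 per Mb in the chromosome 16 cluster and 4 per Mb in each flank, while they numbered 42.4 per Mb in the chromosome 15 cluster against 25 and 37, and 65.6 per Mb in the chromosome 11 cluster against 34 and 42. Reads that fit several places were dropped by the authors, so sharing of sequence between genes was measured as the share of 50-base words of a member's transcripts found in transcripts of other, non-overlapping genes. Its median was 0.121% over the 24 members of chromosome 16, where 12 shared no word, 0.210% over the 26 of chromosome 15, 0.3003% over the keratins of chromosome 11 and 12.7% over the Krtap genes of chromosome 11. Repeats outside transcripts were not measured.

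The small clusters gave few bases. The ultrahigh-sulfur Krtap5 genes of chromosome 7 (chr7:142174535-142304594) were covered by 0%, 0%, 1.54% and 0% on a chromosome covered by only 1.14%, 0.635%, 1.48% and 1.52%. Their transcripts shared a median of 28.4% of words with other genes, and the part of this in their low coverage was not tested. The high-sulfur genes Krtap12-1, Krtap10-4 and Krtap10-10 of chromosome 10 (chr10:77720599-77837252) were covered by 3.43%, 3.43%, 11.1% and 7.54%, against 16.3%, 6.06%, 11.4% and 11.8% in the flanks. Both clusters lay below their flanks in 4 of 4 samples, with differences of -1.88 ± 1.68 and -5.001 ± 5.51 percentage points (SD, n = 4 each, exact two-sided sign-flip permutation tests, p = 0.13 for each, the smallest possible). On chromosome 7 the difference was -1.07 points without mature adipocytes replicate 2 and -1.06 with only regions at least 2 times over the control. In the samples where the chromosome 7 cluster was at 0, it could not lie above its flanks. On chromosome 10 the difference in mature adipocytes replicate 1 was only -0.246 points, and the mean was -2.37 without pre-adipocytes replicate 1. It was -3.06 with regions at a false discovery rate up to 1e-05, -3.45 with flanks of 0.5 Mb and -3.63 with flanks of 2 Mb. With only regions at least 2 times over the control it was -0.602. In these last settings the exact sign-flip p was 0.375, 0.5, 0.25 and 0.75, so the samples no longer all lay below.

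On chromosome 1 (chr1:83041524-83061921) the pair Krtap28-10 and Krtap28-13 spanned only 20.4 kb and gave unstable values, 1.57%, 18.6%, 12.4% and 1.57%. These stood below the flanks in 3 samples and above them in pre-adipocytes replicate 2, with a mean difference of -13.6 ± 13.8 percentage points (SD, n = 4, exact two-sided sign-flip permutation test, p = 0.25). It ranged from -3.15 points with only regions at least 2 times over the control to -20.9 points with flanks of 2 Mb, and was -7.65 points with flanks of 0.5 Mb. With Benjamini-Hochberg adjustment over the 6 clusters, p in these exact tests against flanks was 0.15 for the other 5 clusters and 0.25 here. Regions began close outside the genes, and with 10 kb added on each side Krtap28-13 was covered by 40.97%, 33.3%, 55.8% and 44.8%.

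Single genes were described by the share of the gene body plus 10 kb on each side that lay inside regions. The windows of neighbours overlap, so members are not independent of each other. A region fell inside this window in both pre-adipocyte replicates for 69 of the 110 members (62.7%), against 24.2% of all autosomal protein-coding genes. In both mature replicates it did so for 76 (69.1%), against 34.4%, and in all 4 samples for 67 (60.9%), against 21.1%. In pre-adipocytes without the shallow replicate it did so for 75 members (68.2%), against 35.02% of all genes. The windows of members were shorter than those of all genes, with a median of 22350 bp against 37629 bp. The members split by type: 46 of 53 Krt genes and 21 of 57 Krtap genes had a region in all 4 samples. By cluster the count was 26 of 26 on chromosome 15, 40 of 50 on chromosome 11, 1 of 2 on chromosome 1 and 0 of 32 on chromosomes 7, 10 and 16 together.

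**Figure D3:**
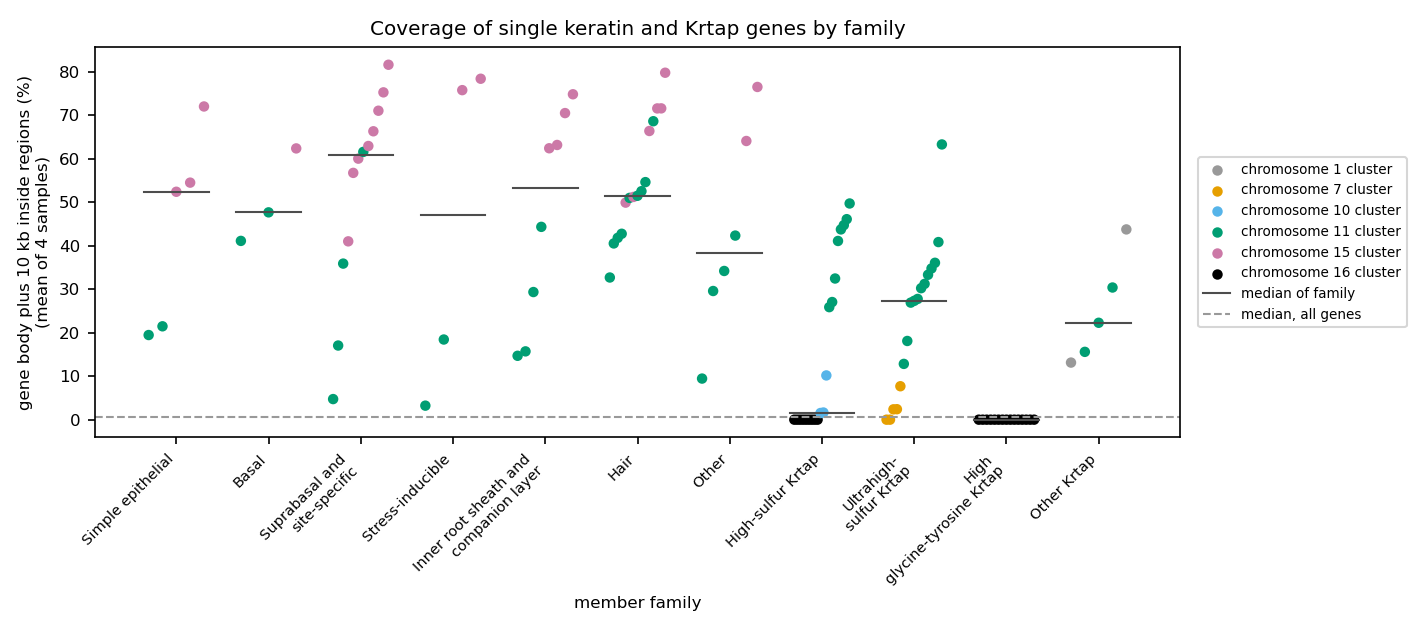
Share of the gene body plus 10 kb on each side inside called regions (%, mean of 4 samples) for each of the 110 members, by family and coloured by cluster, with a bar at the family median and a dashed line at the median of all autosomal protein-coding genes (0.641%). Keratin family medians lie between 38.2% and 60.8%, and all 15 high glycine-tyrosine Krtap genes lie at 0.

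Simple epithelial keratins are the first to appear in development and line ducts and internal organs. All 5 had a region in every sample. Krt7 was covered by 78.1%, 55.7%, 80.1% and 74.03% of its window. Krt8, the type II partner of the primary simple epithelial pair, was covered by 71.2%, 33.1%, 53.9% and 59.7%. Its type I partner Krt18 was covered by 68.1%, 31.98%, 37.9% and 71.5%, and these genes are neighbours. Both were lowest in the shallow pre-adipocyte sample, and the conditions overlapped for both. Most of this coverage lay outside the gene bodies, since regions covered 13.9%, 8.76%, 0% and 19.04% of the body of Krt8 and 0%, 0%, 31.7% and 0% of that of Krt18. Krt8 shares 26.9% of its transcript words with other genes and Krt18 shares 0.721%, and the effect on body coverage was not tested. Krt19, a simple epithelial type I keratin on chromosome 11, was lower, at 31.1%, 17.2%, 12.2% and 25.3%.

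Basal keratins form the filaments of the dividing epidermal layer. Krt5 was covered by 88.4%, 24.9%, 68.3% and 67.9%, highest and lowest in the pre-adipocyte replicates. Its partner Krt14 on chromosome 11 was covered by 68.0%, 36.9%, 30.1% and 55.6%. Krt15, another basal type I keratin, was covered by 59.8%, 22.3%, 51.5% and 30.8%, though regions covered only 0%, 0%, 7.86% and 5.83% of its body. In none of these genes were the conditions separated.

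Suprabasal and site-specific keratins replace the basal pair as epithelial cells mature. All 12 had a region in both mature replicates and 10 in both pre-adipocyte replicates. Krt76 was covered by 89.5%, 54.3%, 100% and 82.5%, the highest mean of all members at 81.6%. Krt79 was covered by 72.9%, 53.6%, 84.8% and 89.7%, with both mature samples above both pre-adipocyte samples. Krt77 was covered by 97.4%, 27.8%, 88.2% and 70.7%. Krt1, the type II keratin of differentiating epidermis, was covered by 91.3%, 15.7%, 77.9% and 55.1%. The contrast with its partner was large: Krt10, the matching type I keratin on chromosome 11, was covered by 9.80%, 0%, 4.15% and 4.98%, and no region overlapped its body in any sample. Krt13, the type I keratin of internal stratified epithelia, was covered by 82.8%, 15.7%, 81.8% and 65.9%, so low coverage was not general to the suprabasal genes of chromosome 11.

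Among the keratins induced by injury and stress, the type II genes of chromosome 15 stood apart from the type I genes of chromosome 11. Krt6b was covered by 73.6%, 80.2%, 83.5% and 76.1% and Krt6a by 75.9%, 68.0%, 85.7% and 73.4% of the window. Both were high in all samples, the shallow one included. Most of this coverage lay outside the gene bodies. Regions covered 8.86%, 0%, 8.86% and 4.17% of the body of Krt6b and 31.8%, 29.4%, 31.8% and 15.7% of that of Krt6a. Krt6b, Krt6a and Krt16 share 50.1%, 45.7% and 37.6% of their transcript words with other genes, so their own bodies may be only partly measurable. Krt17 shares 3.99%. Introns were not examined, and the effect on coverage was not tested. Krt16 was covered by 39.1%, 18.9%, 0% and 15.8%. Krt17, which was singled out after its values were seen, was covered by 0%, 12.9%, 0% and 0%, with its only region in the shallow library.

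Of the 8 keratins of the inner root sheath and companion layer, 6 had a region in both pre-adipocyte and 8 in both mature replicates. Krt71 was covered by 56.8%, 58.2%, 90.4% and 93.8%, and Krt75, of the companion layer, by 73.2%, 8.85%, 84.3% and 86.3%, with the mature samples above the pre-adipocyte samples in both genes. Krt72 was covered by 75.5%, 34.4%, 97.8% and 74.2%. All 15 hair keratins of cortex and cuticle had a region in every sample. Krt81 was covered by 89.7%, 75.1%, 70.2% and 83.998%, Krt87 by 69.03%, 56.8%, 85.6% and 74.8%, and Krt83 by 83.4%, 63.7%, 75.5% and 63.7%. On chromosome 11 the hair keratin with the highest mean of the 4 samples was Krt33a, at 75.2%, 60.03%, 71.996% and 67.2%. Of the 6 keratins outside these groups, Krt88 was covered by 86.8%, 60.8%, 75.9% and 82.4%, Krt90 by 86.4%, 8.50%, 89.5% and 71.7%, and Krt24 by 61.8%, 16.1%, 35.8% and 55.6%.

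**Figure D4:**
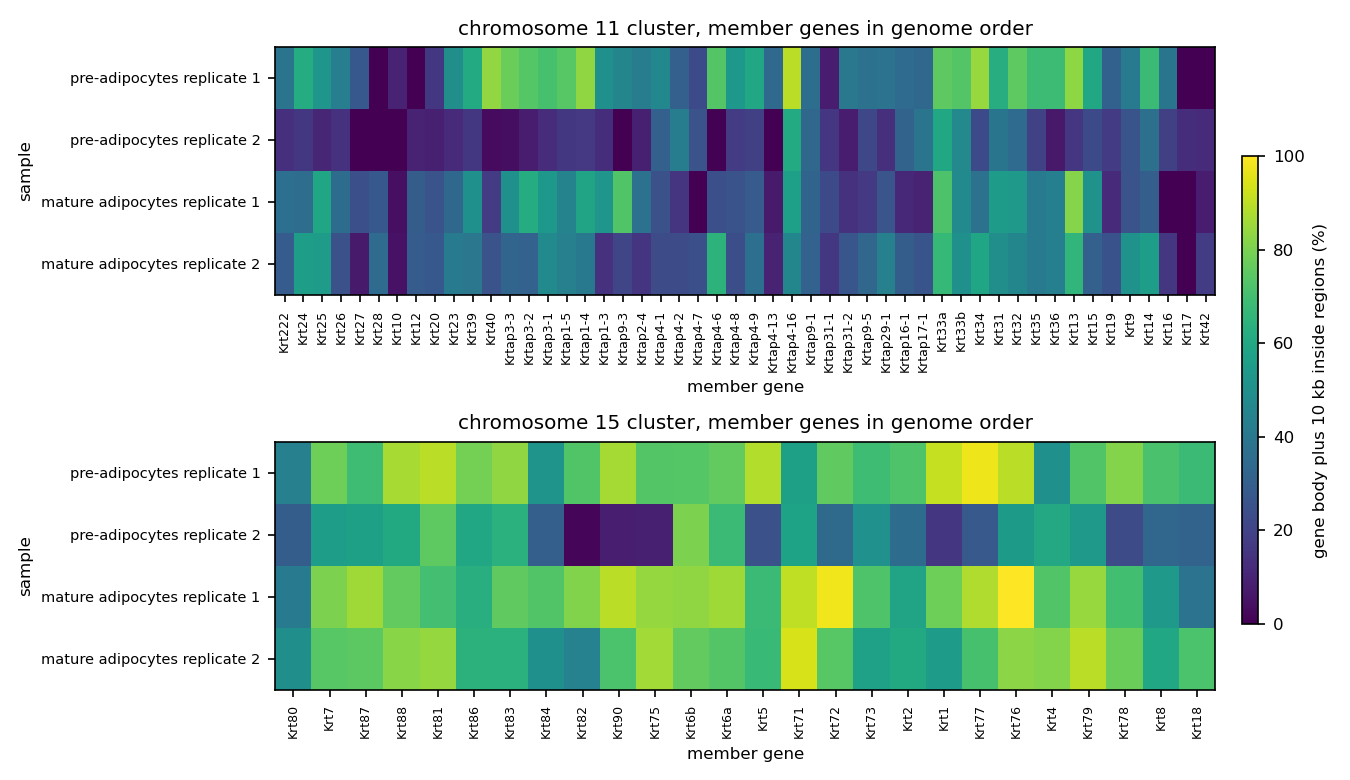
Heat map of the share of the gene body plus 10 kb on each side inside called regions (%, colour scale from 0 to 100) for the member genes of chromosomes 11 and 15 in genome order, with 1 row per sample. Chromosome 15 is bright along most of its length, Krt10 and Krt17 are dark on chromosome 11, and the row of pre-adipocytes replicate 2 is the darkest for most genes.

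The Krtap families followed their location. Of 17 ultrahigh-sulfur genes, 10 had a region in both pre-adipocyte and 12 in both mature replicates. Krtap4-16 was covered by 89.8%, 61.1%, 56.4% and 45.8%, the highest mean of 4 samples among the Krtap genes, with both mature samples below both pre-adipocyte samples. Krtap4-6 was covered by 73.4%, 0.765%, 24.5% and 64.6% and Krtap4-9 by 60.1%, 18.99%, 28.8% and 36.4%. No region overlapped the body of Krtap4-9 in any sample. On chromosome 7 the same class had almost none, with Krtap5-2 at 0%, 7.45%, 6.52% and 16.8%, Krtap5-1 at 0%, 0%, 9.62% and 0% and Krtap5-4 at 0%, 0%, 9.503% and 0%. Shared transcript sequence varied within the Krtap4 family. It ran from none of the words in Krtap4-16 through 15.5% in Krtap4-6 and 17.5% in Krtap4-9 to 81.3% in Krtap4-13. The body of Krtap4-13 may therefore be only partly measurable, and the effect on coverage was not tested.

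High-sulfur genes showed the same division by chromosome. Krtap1-4 was covered by 83.2%, 16.5%, 58.5% and 40.5%, Krtap3-1 by 70.9%, 12.6%, 53.4% and 47.4%, and Krtap1-5 by 74.2%, 16.2%, 44.8% and 43.7%. Of the body of Krtap1-4 alone, regions covered 0%, 23.4%, 0% and 0%. The bodies of Krtap3-1 and Krtap1-5 lay wholly inside regions in each sample, except that Krtap1-5 was covered by 20.7% in mature adipocytes replicate 2. Reads in regions at Krtap3-1 were 828, 51, 562 and 299 against 442, 29, 228 and 147 in the control, or 1.56, 3.20, 2.01 and 1.69 times the scaled control, and the highest of these ratios rests on the fewest reads. On chromosome 10 Krtap12-1 was covered by 19.4%, 0%, 5.81% and 15.5%, Krtap10-4 by 0%, 0%, 0% and 6.13%, and Krtap10-10 by 0%, 0%, 6.57% and 0%. The 9 high-sulfur genes of chromosome 16 were at 0. Outside these classes Krtap29-1 was covered by 38.0%, 13.3%, 26.5% and 43.6% and Krtap31-2 by 40.1%, 7.76%, 14.3% and 26.9%.

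The conditions were compared first by coverage. On chromosome 15 it was 57.0% ± 23.3 for pre-adipocytes against 70.9% ± 3.81 for the mature cells (SD, n = 2 each, difference 13.9 percentage points, exact two-sided permutation test, p = 0.667). On chromosome 11 it was 31.96% ± 19.3 and 35.03% ± 0.0136 (SD, n = 2 each, difference 3.07 points, exact two-sided permutation test, p = 1). In this design p cannot fall below 0.33. Neither difference exceeded the spread between the pre-adipocyte replicates, and both turned when the shallow replicate was left out, to -2.54 and -10.6 points. On chromosomes 1, 7 and 10 the differences were -3.14, 0.769 and 5.91 points (exact two-sided permutation tests, n = 2 each, p = 1, 1 and 0.33), and on chromosome 16 both conditions were at 0. After Benjamini-Hochberg adjustment over the 6 clusters every one of these exact p-values was 1.

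Enrichment inside regions, as log2 of summed ChIP over scaled control reads, on chromosome 15 was 0.94 ± 0.13 for pre-adipocytes against 1.03 ± 0.0020 for the mature cells (SD, n = 2 each, exact two-sided permutation test, p = 1). On chromosome 11 it was 1.02 ± 0.27 and 0.96 ± 0.00076 (SD, n = 2 each, exact two-sided permutation test, p = 1). Without the shallow replicate the difference was 0.18 on chromosome 15 and 0.13 on chromosome 11. Over all regions of the series the median fold enrichment of single regions was 1.61, 2.01, 1.79 and 1.82. There too pre-adipocytes replicate 1 was lowest and the shallow replicate highest, so this order was not particular to the clusters. On chromosomes 1 and 10 the differences were 0.099 and 0.41 (exact two-sided permutation tests, n = 2 each, p = 0.33 for both), resting on 1 to 5 regions a sample. Adjusted over the 4 clusters with a region in every sample, these exact p-values were 0.67.

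Called bases were only partly shared by the samples, all of which were set against the same control library. Of the bases covered in each sample on chromosome 15, 36.8%, 66.7%, 36.7% and 39.6% were covered in the other 3 samples as well. On chromosome 11 these shares were 12.6%, 31.2%, 16.3% and 16.4%. The shallow pre-adipocyte sample, with the fewest covered bases, had the largest share in both clusters. Bases covered in both mature and neither pre-adipocyte sample made up 4.07% of the members' windows, against 2.0004% of the autosomes. The reverse made up 1.48% against 0.471%. Without the shallow replicate the shares were 5.48% against 2.46% and 7.86% against 2.87%. Which kind was the more frequent therefore turned at members and over the autosomes alike. These are shares of all bases, not of covered bases, and the median window of members was more covered than that of all genes in every sample. They therefore cannot show whether bases called in 1 condition only were more frequent at members than at other regions of like coverage. The longest stretch of either kind at members was 6.0 kb at Krt75 (chr15:101570601-101576600), called in both mature samples.

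Krt28, a type I keratin of the inner root sheath, was the only member with a region in both mature samples and in neither pre-adipocyte sample. It was covered by 0%, 0%, 27.7% and 35.1% of its window, or 46.9% and 72.8% of its body in the mature samples. The regions there held 473 and 392 ChIP reads against 200 and 198 control reads, 1.93 and 1.64 times the scaled control. In pre-adipocytes the nearest regions lay 16271 and 30671 bp away. This pattern was met by 1 of 110 members (0.909%) and by 4.86% of all autosomal protein-coding genes. The reverse pattern was met by 0 members, against 0.913% of all genes.

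Both mature samples lay above both pre-adipocyte samples in window coverage for 11 of 110 members (10.0%), against 14.6% of all genes, and below for 7 (6.36%), against 3.51%. The 7 genes are not independent, as most are neighbours. A gene with no region in any sample can be in neither count, which held for 26 of 110 members and 9635 of 20807 genes. The shares of members and of all genes are therefore not matched for coverage. Both counts rested on the pre-adipocyte pair, whose samples were far apart. Without pre-adipocytes replicate 1, 61 members (55.5%) lay above, against 27.99% of all genes, and without the shallow replicate 2, 49 (44.5%) lay below, against 18.1%. Without mature adipocytes replicate 1 or 2 the count above was 19 (17.3%, against 22.7%) or 25 (22.7%, against 23.4%), and without replicate 2 the count below was 13 (11.8%, against 5.48%). The 7 were Krtap4-1, Krtap4-2, Krtap4-16, Krtap9-1, Krtap16-1 and Krtap17-1 in the Krtap block of chromosome 11, and Krt16. The 11 were Krt4, Krt71, Krt75, Krt79 and Krt87 on chromosome 15, Krt12, Krt20, Krt25, Krt28 and Krtap31-1 on chromosome 11, and Krtap28-13. Apart from the genes named above for other reasons, these were listed after their values were seen.

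Read density was then compared within regions called in all 4 samples, after regions of the samples were merged where they overlapped. Each sample's reads and length were those of its own called parts of the merged region. Samples were therefore compared over partly different bases, all of which had passed the caller. A difference in bases that were not called does not enter this test. Of 119 merged regions within 10 kb of members 47 were called in every sample and could be tested. With edgeR's quasi-likelihood test and Benjamini-Hochberg adjustment over all 12857 such regions of the genome, 11 (0.0856%) passed an adjusted p of 0.05 and none of the 47 did. The smallest adjusted p at a member was 0.295, and DESeq2 called none of the 47 either. Without adjustment 9 of the 47 (19.1%) had p under 0.05, 4 of them higher in mature adipocytes, against 9.15% of all regions tested. The median log2 ratio of mature to pre-adipocytes was 0.0057 at members and -0.00066 over all regions.

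The regions at members with the smallest p were of modest size of effect. At Krt35, Krt36, Krt13, Krt15 and Krt19 (chr11:100104401-100132000) scaled reads per kb of called sequence were 35.98, 34.6, 30.5 and 29.6, a log2 ratio of -0.25 ± 0.086 (SE, edgeR adjusted p = 0.295). At Krt40, Krtap3-3 and Krtap3-2 (chr11:99545401-99550000) they were 35.1, 61.2, 25.1 and 29.9, a ratio of -0.61 ± 0.23 (SE, edgeR adjusted p = 0.366) that rests on 29 reads in the shallow sample. At Krt32, Krt35 and Krt36 the log2 ratio was -0.38 ± 0.17 (SE, edgeR adjusted p = 0.463). In the other direction, the region at Krt6a and Krt5 (chr15:101694201-101711600) had 32.99, 35.7, 39.2 and 39.6 scaled reads per kb, a log2 ratio of 0.22 ± 0.089 (SE, edgeR adjusted p = 0.420). At Krt4, a keratin of internal stratified epithelia, they were 29.0, 24.7, 35.1 and 39.3, a ratio of 0.44 ± 0.18 (SE, edgeR adjusted p = 0.426), and at Krt24 the ratio was 0.24 ± 0.11 (SE, edgeR adjusted p = 0.490). These 6 regions were picked by p, so separation of the conditions in them is no result of its own. None of the 6 passed the adjusted threshold.

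**Figure D5:**
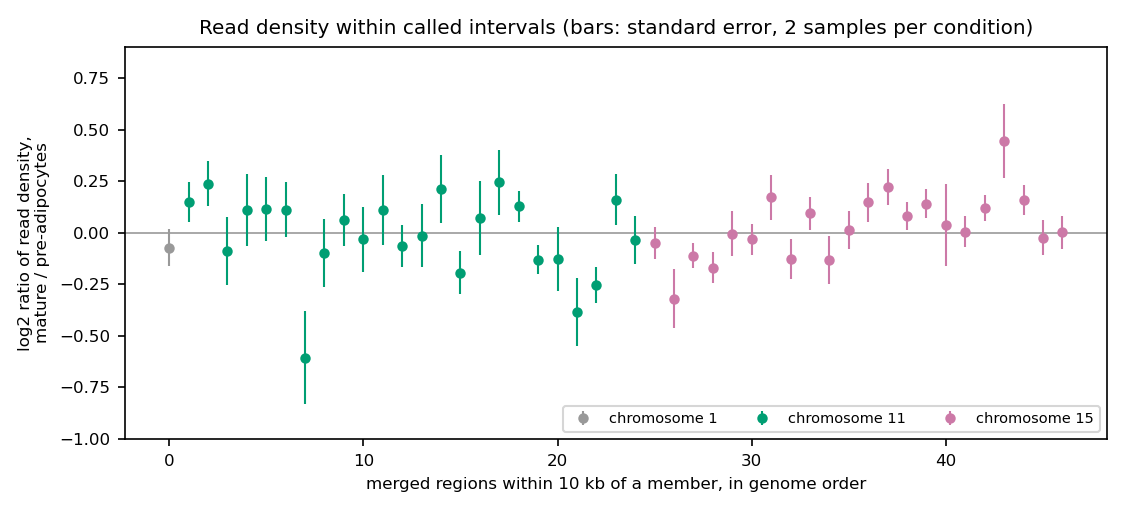
Log2 ratio of read density, mature over pre-adipocytes, for the 47 merged regions within 10 kb of a member that were called in all 4 samples, in genome order and coloured by chromosome, with bars for the standard error of the edgeR fit (2 samples per condition). Density was taken over each sample's own called bases. The ratios lie between -0.61 and 0.44 on both sides of 0, and none passed the adjusted threshold.

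Genes of related function were counted by the same window. The epidermal differentiation complex on chromosome 3 encodes the cornified envelope proteins (loricrin, involucrin, the late cornified envelope and small proline-rich families) that are made in the same cells as the suprabasal keratins. None of its 44 genes had a region in both replicates of either condition, and 30 had none in any sample. Of 15 intermediate filament genes that are not keratins, 7 had a region in both pre-adipocyte and 9 in both mature replicates. Over all autosomal protein-coding genes these shares were 24.2% and 34.4%, and 9635 of 20807 genes had no region in any sample. Median windows were 21674.5 bp in the epidermal differentiation complex, 33577 bp in the other filament genes and 37629 bp over all genes. Vim, which encodes vimentin, the filament protein of mesenchymal cells, was covered by 44.4%, 22.8%, 21.5% and 32.9%, and Prph, the neuronal filament gene on chromosome 15, by 100%, 25.2%, 73.1% and 69.8%. Both were named after their values were seen.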

How the data were processed

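Sequencing reads were aligned by the authors to mm10 with Bowtie 1.1.2, keeping uniquely mapped reads with few mismatches, and duplicates were removed with Picard. The authors called enriched regions per sample with SICER 1.1 against the no-antibody library. The deposited tables give, per region, raw ChIP and control counts, a p-value, the false discovery rate and a fold enrichment, the ratio of the counts after scaling for library size. The p-values and FDR were used only as thresholds. The control has no table of its own among the files used here.

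Members, clusters, families and comparison lists were chosen with earlier results of these data known. Genes named singly were 7 keratins chosen by name, up to 3 members per cluster and family with the highest mean coverage, and members singled out by start site, condition or smallest edgeR p in each direction. Coverage was computed to the base, and bases shared by samples or covered in 1 condition were counted in steps of 200 bp. Library size ratios came from the deposited fold. Counts of merged regions were tested with edgeR 4.0.16 (TMM, offset of log called length) in R 4.3.3; DESeq2 1.42.0 was an alternative. On simulated counts for all 12857 regions the test was checked before use. Leaving out replicates from the counts of members, and from the bases covered in 1 condition, was added after seeing the data. Single values were compared by exact permutation tests (Python 3.11.15). Promoters came from RefSeq (GRCm38.p6) and transcripts from GENCODE M21. Replicates are biological duplicates by the study's methods.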

Additional observations from a re-analysis of the deposited data

How the results depend on the processing

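The cluster of chromosome 16 stayed empty under every alternative run. The excess of the clusters of chromosomes 11 and 15 over their flanks kept its direction in each. Differences between conditions in coverage did not. On chromosome 1 the difference of -3.14 points became 6.18 with regions at a false discovery rate up to 1e-05 and 7.08 with the span extended by 10 kb, and ranged from -11.7 to 5.39 with 1 replicate left out. Leaving out replicates gave -10.6 to 16.7 points on chromosome 11 and -2.54 to 30.4 on chromosome 15, and log2 enrichment differences of -0.25 to 0.13 and -0.0051 to 0.18. Members with a region in both pre-adipocyte replicates numbered 36 (32.7%, against 6.68% of all genes) instead of 69 with regions at least 2 times enriched, 31 (28.2%, against 11.8%) in gene bodies alone and 15 (13.6%, against 0.567%) with at least 50% of the window covered. In mature adipocytes the latter choices gave 46 (41.8%, against 17.8%) and 26 (23.6%, against 2.95%) instead of 76. The 11 regions called by edgeR over the genome became 6 with DESeq2, 3 without the length offset, 56 with at least 100 reads per sample, 1 at a false discovery rate up to 1e-05, 1 with regions at least 2 times enriched, and 1 to 224 with 1 replicate left out, and none was at a member in any of these. Taking regions called in at least 2 samples, with uncalled samples at 0 reads, gave 9229 calls among 36971 regions (24.96%) and 17 at members (16.8% of those tested there), by construction of the zeros. Apart from that setting the causes were not tested. Deviations of samples with the same replicate number correlated at 0.00775. With 2 samples per condition this is a single value, which cannot decide whether the numbers pair the samples. The fit with the replicate block called 27 regions, 0 at members. Precision is limited by 2 samples per condition and by the shallow pre-adipocyte library.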
